A study of Fragaria x ananassa with 3 samples.

Results

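The deposited table for postharvest strawberry fruit lists 85 mature miRNA names known from other plants and 1225 new candidates, and 3 of these names belong to miR2911 or miR1310: han-MIR2911-p5_1ss20TA, peu-MIR2911-p3_1ss4AG and pde-MIR1310-p5_1ss16TC. They were chosen by their names, with earlier results of these data known, and all 3 are among the 85 known names. The small RNAs came from the cultivar Zhangji of Fragaria ananassa, picked when ready for market and held at 20 °C in bagged trays at a relative humidity near 85%. Fruit kept for 24 h gave 1 small RNA library and fruit kept for 0 h gave the other, and a degradome library, which records the ends of cleaved mRNAs, was made from a mixture of both. The number of fruits behind each library is not stated.

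miRNAs of plants are cut from the stem of a folded precursor by a Dicer enzyme, which releases the guide strand paired with its partner strand, and the guide then directs an Argonaute protein to complementary mRNAs. miR2911 does not follow this course in other plants, where it has been described as a fragment of the large ribosomal RNA that is rich in G and C. Ribosomal RNA is the most abundant RNA of the cell. The study removed reads that matched Rfam, rRNA included, before the miRNAs were counted, so the values given here are those of sequences still listed after that step. Whether the hairpins described here lie in rRNA genes was not tested, because no rRNA sequence of strawberry was at hand.

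The mature sequences are shown for their base composition and for the places they take in their hairpins. The study grouped its known miRNAs into families by the likeness of their sequences. The seed (bases 2 to 8 from the 5′ end) is in capitals, and T stands for U as in the deposited table.
han-MIR2911-p5_1ss20TA: cGAACCCGtcggctgtcggag
peu-MIR2911-p3_1ss4AG: gGCGAGAGcgggtcgtcgcgt
pde-MIR1310-p5_1ss16TC: gAGGCATCgggggcgcaacgc
Each of the 3 has a seed of its own, and 0 other names in the table share any of the 3 seeds. This is common in the table, where 746 names, 56.9% of all, and 45 of the 85 known names have a seed found in no other name. All are 21 nt long, as are 66 of the 85 known names. One begins with C and 2 begin with G, whereas 43 of the 85 known names, 50.6%, begin with U, and 10 begin with C and 17 with G.

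The G+C content of these sequences was the highest among known miRNAs of the fruit. It was 71.4% for han-MIR2911-p5_1ss20TA and 76.2% for both peu-MIR2911-p3_1ss4AG and pde-MIR1310-p5_1ss16TC. The other 82 known names lay between 33.3% and 66.7%, so the members did not overlap with them. Among all names, 2 had a higher G+C content than the 76.2% of the p3 and miR1310 names, and both were new candidates. Altogether 26 names reached 70%, the 3 members and 23 new candidates.

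Both miR2911 names lie on 1 hairpin, the p5 name towards its 5′ end and the p3 name towards its 3′ end. In the study's supplementary tables this hairpin is on scaffold scf0510280 of the Fragaria vesca genome 1.0, plus strand, from 963 to 1047. The p5 sequence takes positions 967 to 987 of the scaffold, and the p3 sequence positions 1009 to 1029. The miR1310 hairpin is on scaffold scf0512813, plus strand, from 393 to 476, with the listed sequence from 397 to 417. No gene, exon or intron is assigned to these places in the tables. The hairpins are shown with the runs that the tables mark in capitals, which are the listed arms for miR2911 and, for miR1310, the listed sequence followed by a 3′ run for which no name is listed.
Fragaria vesca miR2911 hairpin: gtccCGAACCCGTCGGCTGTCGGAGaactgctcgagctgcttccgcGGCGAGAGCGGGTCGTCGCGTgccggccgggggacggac
Fragaria vesca miR1310 hairpin: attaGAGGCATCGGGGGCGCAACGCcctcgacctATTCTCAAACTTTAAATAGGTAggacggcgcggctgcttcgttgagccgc

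Neither miR2911 name is the strand that is annotated as mature miR2911 in Populus euphratica, the species whose hairpin the tables give as the closest known one. That hairpin is shown with its annotated mature miRNA in capitals.
Populus euphratica MIR2911 hairpin: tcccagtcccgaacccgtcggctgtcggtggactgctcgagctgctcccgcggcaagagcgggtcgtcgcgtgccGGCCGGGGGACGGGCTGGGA
Over an overlap of 85 bases without gaps, the Fragaria and Populus hairpins were identical at 80 positions, 94.1%. The annotated mature miRNA of 20 nt takes positions 76 to 95 of the Populus hairpin, downstream of both listed names. The Fragaria hairpin reaches only 15 of these 20 bases, and its stretch is shown with the leading bases identical to Populus in capitals.
Matching stretch of the Fragaria vesca hairpin: GGCCGGGGGACGGac
Among all listed names, new candidates included, the longest run of bases shared with the annotated mature miRNA on either strand was 9, found in a name other than the 3 members. The annotated strand itself was therefore not among the listed sequences, and a sequence absent from this table may still have been removed at an earlier step.

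The suffix of each name gives its difference from the sequence in miRBase, counted from the 5′ end with the reference base first. For han-MIR2911-p5_1ss20TA the substitution T20A was found against the Populus sequence in the table, and for peu-MIR2911-p3_1ss4AG it was A4G. For pde-MIR1310-p5_1ss16TC the name states T16C, but the reference sequence given beside it equals the listed one, so the substitution could not be checked. A second name for the same sequence in that table states A6G instead.

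The RNA of the miR2911 hairpin folded into a structure in which few bases of the 2 listed arms faced each other. By the minimum free energy structure of RNAfold, 6 base pairs joined the p5 and the p3 sequence. Of the 21 bases of the p5 sequence 15 were paired, 9 of them with bases downstream of the p3 sequence, the part that also holds the stretch similar to the annotated miR2911. Of the 21 bases of the p3 sequence 16 were paired, 10 of them with bases between the arms. In the 24 other known hairpins with 2 listed names, 16 to 20 pairs joined the marked arms, with a median of 17. The miR2911 hairpin lay below all of these, and in the predicted structure its listed arms were not opposite each other along their length.

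The miR1310 hairpin had 0 pairs between its marked runs. Its listed sequence had 15 paired bases, 9 of them with bases between the runs and 6 within the sequence itself. The pairs within the sequence formed the tip of the same stem. The 49 other known hairpins with 2 marked runs had 10 to 21 pairs, 48 of them at least 14, and the lowest value, 10, belonged to the hairpin of zma-MIR171e-p3_1ss2GT. Counted from base pair probabilities instead of a single structure, the expected number of pairs between the runs was 5.39 for miR2911 and 0.320 for miR1310, and 9.97 to 20.8 in the other hairpins.

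**Figure D1:**
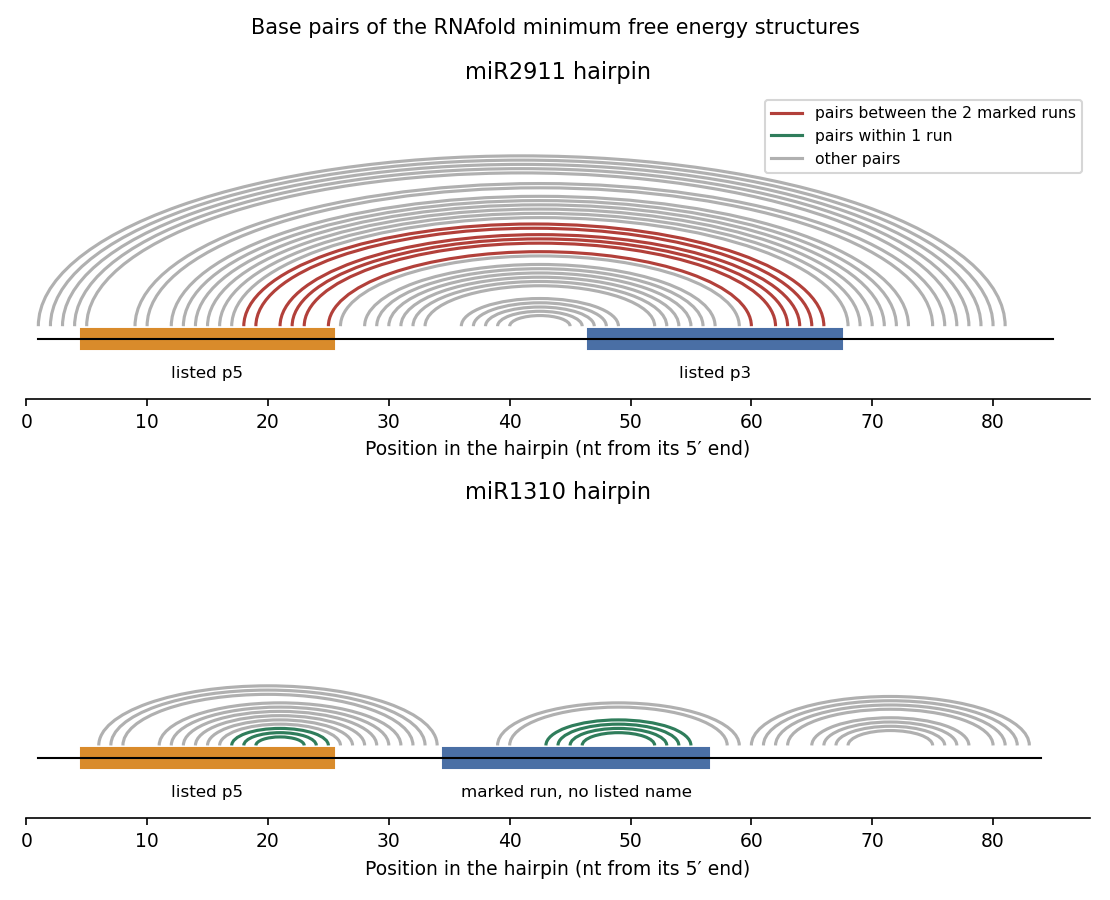
Base pairs of the miR2911 hairpin (top) and the miR1310 hairpin (bottom) as arcs over the position in the hairpin in nt, with the marked runs as boxes. Red arcs join both runs (6 for miR2911, 0 for miR1310), green arcs lie within a run, and grey arcs are other pairs.

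The G+C content of the hairpins was also high, at 74.1% for miR2911 and 57.1% for miR1310, above the highest of the 49 other hairpins, 57.0%. The folding energy was -48.4 kcal/mol for miR2911, or 56.9 kcal/mol per 100 nt in size, and 4 of the 49 others were more stable per 100 nt. Divided by G+C percent, this gives the minimal free energy index, a measure used to separate precursors of miRNAs from other RNAs, which was 0.768 for miR2911. For miR1310 the energy was -30.5 kcal/mol and the index 0.635, below each of the 49 other hairpins, whose values lay between 0.728 and 1.35 with a median of 1.02. For miR2911, 2 of the 49 were lower.

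**Figure D2:**
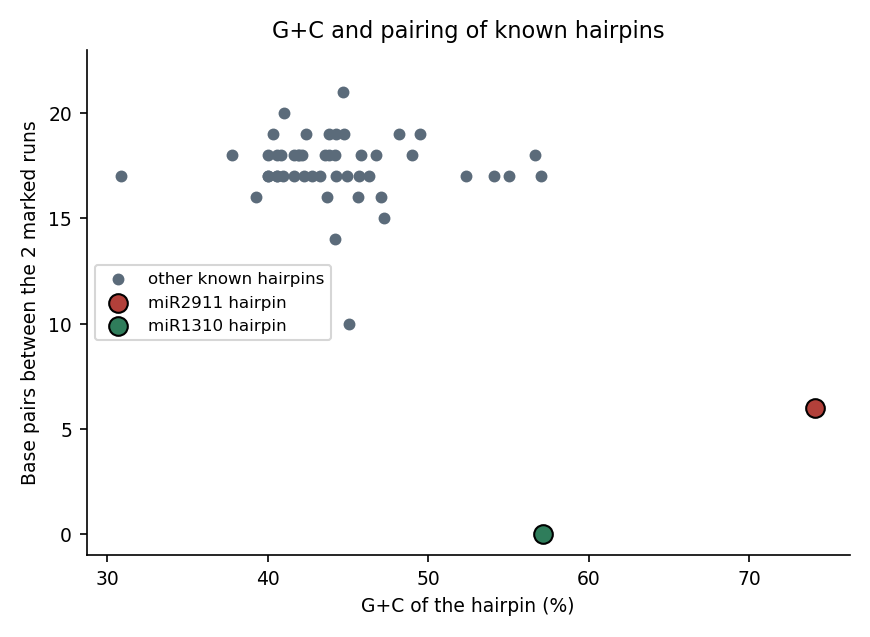
G+C content of each known hairpin with 2 marked runs in percent (x axis) against the number of base pairs between the runs (y axis). The miR2911 hairpin stands at 74.1% and 6 pairs and the miR1310 hairpin at 57.1% and 0 pairs, while the 49 other hairpins have 10 to 21 pairs.

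The miR2911 names had more reads after 24 h of storage, and the miR1310 name had fewer. With 1 library per storage time there are no replicates and no test across samples was possible, so values carry exact 95% intervals of counting error only, from the Poisson distribution for reads, by the Clopper-Pearson method for shares and from the conditional binomial distribution for folds. These leave out the variation between fruits or libraries, and no molecular identifiers are mentioned for the reads. The listed names together held 2998588 raw reads in the 24 h library and 3006293 in the 0 h library. Normalized reads are the authors' own, close to the product of the raw reads and a factor of 0.846 for the 24 h library and 0.917 for the 0 h library. Folds are 24 h over 0 h on these normalized reads.

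For han-MIR2911-p5_1ss20TA there were 8674 raw reads at 24 h (interval 8492 to 8859) and 4479 at 0 h (4349 to 4612). The normalized reads were 7340 at 24 h and 4105 at 0 h, a fold of 1.79 (1.72 to 1.85). The intervals of the raw reads did not overlap, but they hold counting error only, which is small at this depth. How many other names show the same was not counted.

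For peu-MIR2911-p3_1ss4AG, the more abundant arm, there were 31186 raw reads at 24 h (30841 to 31534) and 18189 at 0 h (17926 to 18455). The normalized reads were 26390 at 24 h and 16672 at 0 h, a fold of 1.58 (1.55 to 1.61). It was the most abundant of the 3 in both libraries, at rank 11 among all names at 24 h and rank 14 at 0 h. The p5 arm stood at rank 19 at 24 h and rank 20 at 0 h.

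For pde-MIR1310-p5_1ss16TC there were 673 raw reads at 24 h (623 to 726) and 937 at 0 h (878 to 998.97). The normalized reads were 569 at 24 h and 858 at 0 h, a fold of 0.663 (0.5997 to 0.733). It ranked 50 at 24 h and 35 at 0 h, and its direction was opposite to that of both miR2911 names.

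**Figure D3:**
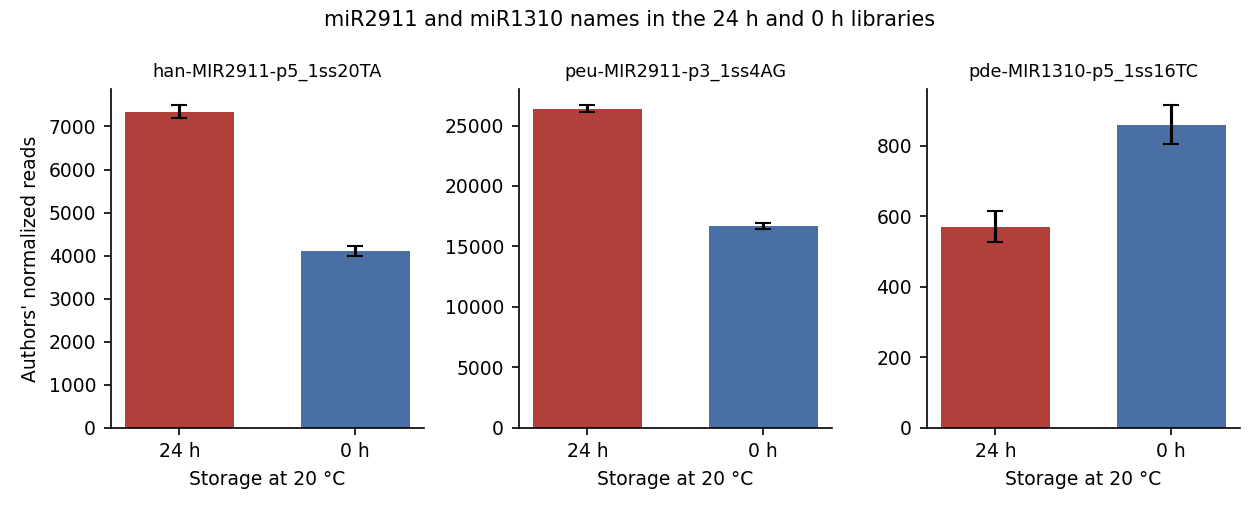
Normalized reads of the 3 names (y axes, each starting at 0) in the 24 h library (left bar) and the 0 h library (right bar), with 1 library per bar and error bars for the 95% Poisson counting interval of the raw reads on the same scale. Both miR2911 names are higher at 24 h (7340 against 4105 and 26390 against 16672), and miR1310 is lower (569 against 858).

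Of the 3 names, 0 were past the threshold of a log2 fold above 1 or below -1. In the same comparison, 124 of the 1248 names that reached 10 raw reads in either library were past it, 9.94%, with 78 higher (6.25%) and 46 lower (3.69%) at 24 h. This split moves with the scaling, to 96 higher and 35 lower on raw reads, 109 higher and 35 lower with the listed total as the scale, and 41 higher and 103 lower with that total less the dominant miR156 family. The log2 folds were 0.84 for han-MIR2911-p5_1ss20TA, 0.66 for peu-MIR2911-p3_1ss4AG and -0.59 for pde-MIR1310-p5_1ss16TC, and the median over the 1248 names was 0. With every scaling tried, the 3 directions were the same and 0 of the 3 names passed the threshold.

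Within the whole table the folds of the members were towards the edges without being extreme. Of the 1248 names, 113 (9.05%) had a higher fold than han-MIR2911-p5_1ss20TA and 157 (12.6%) a higher fold than peu-MIR2911-p3_1ss4AG. A lower fold than that of pde-MIR1310-p5_1ss16TC was found for 163 names (13.1%). Many of these have few reads, and among the 40 names that reached 1000 raw reads in either library, which include both miR2911 names, 5 were above the p5 arm and 8 above the p3 arm. All of these 40 had a higher fold than the miR1310 name, which itself stayed below 1000 raw reads.

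**Figure D4:**
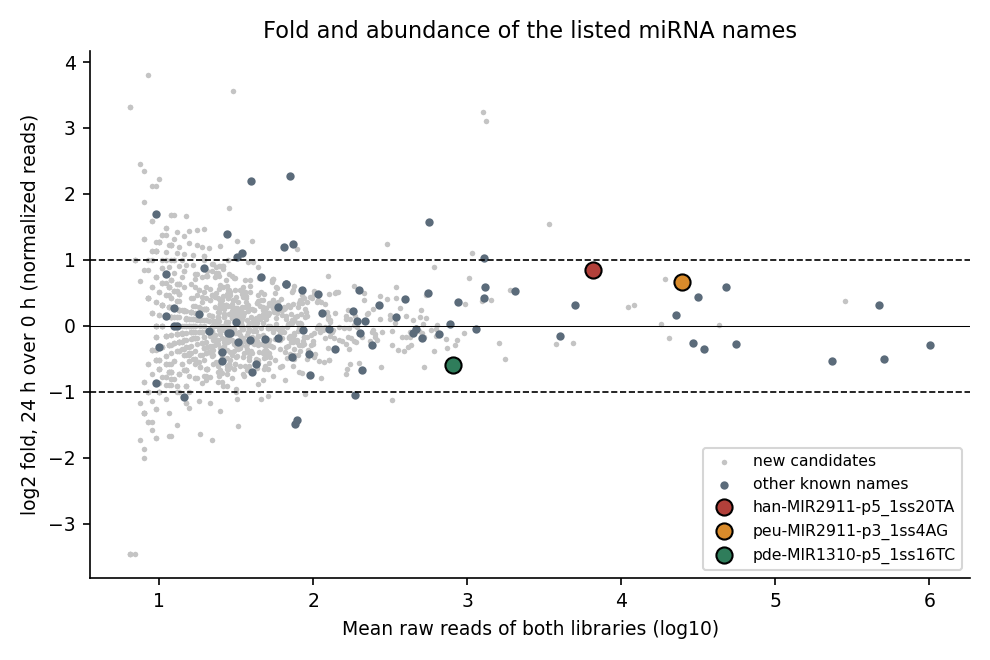
log2 fold of 24 h over 0 h (y axis) against the mean raw reads of both libraries on a log10 scale (x axis) for the 1248 names with enough reads, with dashed lines at 1 and -1. The 3 members lie between the dashed lines, at 0.84 and 0.66 for miR2911 and -0.59 for miR1310.

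The abundant names with folds nearest to the members were 4 new candidates, 1 name of miR168 and 2 names of miR156. Likeness was taken as the difference in log2 fold over the 2 libraries, among the 65 other names that reached 500 raw reads in either library, and so rests on a single difference per name. For the p5 arm the nearest were PC-3p-5426_650 (log2 fold 0.89), PC-3p-2161_1479 (0.72) and PC-3p-132_23619 (0.70), all new candidates. For the p3 arm they were PC-3p-132_23619, PC-3p-2161_1479 and mdm-miR168b (0.58), of the family that targets Argonaute mRNA in other plants. For miR1310 they were PC-5p-2988_1087 (-0.62), ptc-miR156j_1ss15AT (-0.53) and mdm-miR156b (-0.51), the last of these members of the family that targets SPL transcription factors.

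On the authors' scale, other sequences rich in G and C were split evenly between higher and lower values at 24 h, as was the whole table. Of the 23 other names with at least 70% G+C, all with enough reads, 11 had higher values at 24 h, 11 lower and 1 equal, with a median log2 fold of 0 and a range of -1 to 0.93. Over all 1248 names 590 were higher, 604 lower and 54 equal. Scaled by the listed total less miR156, 3 of the 23 were higher and 20 lower, against 377 and 871 of the 1248. On raw reads 12 of the 23 were higher and 10 lower, against 716 and 481 of the 1248. With the listed total 13 were higher and 10 lower, against 767 and 481. With the TMM and the DESeq2 factors described below, 12 were higher and 11 lower. Of the 1248, 639 were higher and 609 lower with TMM, and 631 and 617 with DESeq2. These scales were applied to this count after seeing the data. These names had few reads, from 10 to 145 in their deeper library. The p3 name and the miR1310 name have the same G+C content and folds in opposite directions. Whether G+C content is related to the folds was not tested.

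Together the 2 arms of miR2911 made up a larger part of the listed reads at 24 h. The miR2911 family held 39860 raw reads at 24 h, or 1.33% of all listed reads (1.32 to 1.34%), against 22668 at 0 h, or 0.754% (0.744 to 0.764%). On the authors' scale the family fold was 1.62 (1.60 to 1.65). Of the 31 known families, miR2911 was at rank 6 by raw reads at 24 h and at rank 7 at 0 h. The miR1310 name held 0.0224% (0.0208 to 0.0242%) at 24 h and 0.0312% (0.0292 to 0.0332%) at 0 h, and its family stood at rank 14 at 24 h and rank 11 at 0 h. By family fold, 7 of the 31 families were above miR2911 and 2 were below miR1310. Many of these had few reads. The families above miR2911 had from 15 to 1779 raw reads at 24 h and from 4 to 804 at 0 h. The 2 below miR1310 had 45 and 168 at 24 h, and 111 and 246 at 0 h. The ratio of miR2911 to miR1310 raw reads, in which the scaling between libraries plays no part, was 59.2 at 24 h and 24.2 at 0 h.

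The p3 arm dominated the miR2911 hairpin in both libraries, less so at 24 h. The ratio of p3 to p5 raw reads was 3.60 at 24 h (3.51 to 3.68) and 4.06 at 0 h (3.93 to 4.197). In shares, the p5 arm held 21.8% (21.4 to 22.2%) of the reads of the hairpin at 24 h and 19.8% (19.2 to 20.3%) at 0 h. The counting intervals did not overlap, and the difference was 2.00 percentage points. Since both arms were counted in the same library, no scaling enters this share. Such a shift was not particular to miR2911. The share of the lesser strand moved by more percentage points in 3 of 12 other known pairs with at least 1000 raw reads. Over all 24 other known pairs, 13 moved by more. Of the 12, 8 had under 5% of their reads on the lesser strand at 24 h, which leaves little room for such a shift. By the difference in log2 fold between the arms, 4 of the 12 had a smaller one than miR2911. Among the 12, the counting intervals of the share also did not overlap for the pairs of miR408, miR396, mdm-miR168b and mdm-miR167b_R+1_1ss21AC. For mdm-miR168b they were 2.39 to 2.64% at 24 h and 2.65 to 2.99% at 0 h. For mdm-miR167b_R+1_1ss21AC they were 0.099 to 0.184% at 24 h and 0.244 to 0.357% at 0 h.

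Among abundant known miRNAs, 1 of 12 other pairs had a larger share on the lesser strand than miR2911 at 24 h, and 3 of 12 had at 0 h. For miR2911 the lesser strand is only the name with fewer reads. Its 2 names shared 6 predicted base pairs, against 16 to 20 in the other known hairpins with 2 listed names, so the comparison is not of like with like. Over all 24 other known pairs, those with few reads included, 9 were above miR2911 at 24 h and 11 at 0 h, and the median lesser share at 24 h was 16.97%. The 12 abundant pairs are those with at least 1000 raw reads over both arms and libraries, and 8 of them had under 5% of their reads on the lesser strand at 24 h, as for mdm-miR168b and its partner ptc-miR168b-3p (2.52%), and their median was 1.12%. The pair above miR2911 at 24 h was that of gma-miR166i-5p_R+1_1ss20GA and mdm-miR166a_R+1, of the miR166 family that targets HD-ZIP III genes, with 28.9% at 24 h and 31.3% at 0 h on the lesser strand. The pair of miR396, a family that targets growth-regulating factors, had a share close to that of miR2911 at 24 h, 21.7% (18.4 to 25.2%) for gma-miR396a-3p_L+1, against 43.3% (39.2 to 47.4%) at 0 h. In the miR408 pair the lesser name mdm-miR408b held 16.9% at 24 h and 20.7% at 0 h. Some of these pairs share a strand, since a name with several precursors has its reads repeated on each. Among new candidate pairs with at least 100 raw reads, 67 of 124 had a larger lesser share than miR2911 at 24 h.

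Both arms of miR2911 had higher values at 24 h, and their log2 folds, 0.84 and 0.66, differed by 0.18. In the 12 other abundant known pairs this difference ranged from 0.13 to 1.47 with a median of 0.35, and 4 of them had a smaller one. In 7 of the 12 both strands lay on the same side of 0.

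**Figure D5:**
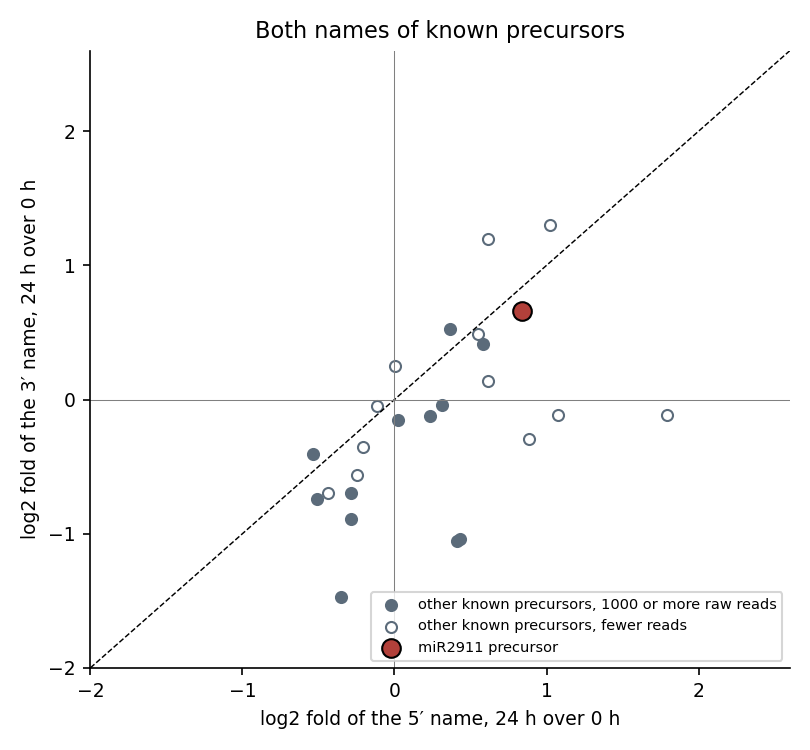
log2 fold of 24 h over 0 h of the 5′ name (x axis) against that of the 3′ name (y axis) on each known precursor with 2 names, with filled points for pairs with at least 1000 raw reads and a dashed line at equal folds. The miR2911 precursor stands at 0.84 and 0.66, close to the line and higher at 24 h in both arms.

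No cleaved mRNA was listed for any of the 3 names. The degradome table has 152 entries for 75 small RNA names, and 0 of them carry a member's name or sequence. Of the 85 known names, 38 have at least 1 target entry. Among the 18 other known names with at least as many reads as miR1310 over both libraries, 12 have target entries, and among the 9 with at least as many as the p3 arm of miR2911, 8 have. The degradome was made from RNA enriched for poly(A) tails and searched against annotated genes, so targets outside that gene set could not be listed.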

How the data were processed

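Per the methods of the study, the authors filtered reads with ACGT101-miR 4.2, removed mRNA, Rfam and repeat sequences, kept 15 to 32 nt and mapped to miRBase 19. The raw counts per mature miRNA are used as deposited. The authors' normalized reads, whole numbers close to 1 factor per library whose formula is not stated, were treated as a score. The authors found degradome targets with CleaveLand 3.0 and ACGT301-DGE 1.0, and only the small RNA names of these entries were used.

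Each name was counted once over the 1431 entries of the table. The members and lists were chosen with earlier results of these data known. Named miRNAs are the 3 members, the 3 names nearest in fold to each, names sharing a seed or a run of at least 12 bases with them (0 were found) and known pairs of arms with at least 1000 raw reads, while zma-MIR171e-p3_1ss2GT was singled out after its value was seen. A count of 0 was replaced by 3 raw reads. Hairpin sequences and positions come from the study's supplementary tables, whose read values were not used. Folding used RNAfold 2.7.2 at its default settings. The fold procedure was tested on simulated counts with counting noise only, so error between libraries was not part of that test.

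The alternatives were raw reads, scaling by the listed total, by that total without miR156, by TMM factors (edgeR 4.0.16) and by DESeq2 1.42.0 size factors, a pseudocount of 1, other filters on low counts, other units of counting and other denominators, and, added after seeing the data, counting from base pair probabilities. Scripts ran in R 4.3.3 and Python 3.11.15 (scipy 1.17.1, pandas 2.3.3, numpy 2.4.6, matplotlib 3.10.9). No gene coordinates of the cultivated strawberry were used.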

Additional observations from a re-analysis of the deposited data

How the results depend on the processing

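The scalings moved all log2 folds together, by 0.12 without scaling and with the listed total, by -0.25 with the listed total without miR156, by 0.02 with TMM and by 0.01 with DESeq2 size factors, and the size of the folds depends on this choice. Without scaling the log2 fold was 0.95 for han-MIR2911-p5_1ss20TA and 0.78 for peu-MIR2911-p3_1ss4AG, and with the listed total 0.96 and 0.78. With the listed total without miR156 it was 0.59, 0.41 and, for pde-MIR1310-p5_1ss16TC, -0.84. The other values of the 3 names stayed within their counting intervals. Past the 2-fold threshold were 124 names, 21 of 409 when at least 50 raw reads in a library were asked for, and 105 to 144 under the other alternatives. The 3 members held 1.35% (24 h) and 0.785% (0 h) of all listed reads, 1.67% (24 h) and 0.918% (0 h) of those of known names, and 2.88% (24 h) and 2.16% (0 h) of those outside miR156. Counted from base pair probabilities, an alternative chosen after seeing the data, the pairs between the marked runs numbered 0.32 for miR1310 and 5.39 for miR2911. No paired analysis was possible because each storage time has 1 library, and no replicate could be left out. At this depth counting error is small beside the folds of all 3 names, but the error between libraries is unknown.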
